A study of Rattus norvegicus with 40 samples.

Results

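Havcr1 encodes kidney injury molecule 1 (KIM-1), and was described through the only probes annotated to it on the array, GE1278517 and GE13234. It is 1 gene of 12198 with a single symbol, and its 2 probes are among 33849. Both probes were marked as good by the scanner on all 40 arrays. Because the probes differed between strains in opposite directions, each result is given for both.

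KIM-1 is a transmembrane glycoprotein with an immunoglobulin-like domain and a mucin stalk. It is scarce in the healthy kidney and is made by proximal tubule cells after injury, where it binds phosphatidylserine on dying cells and lets epithelial cells engulf them. Its outer part is shed into the urine and serves as a marker of tubular damage, and in lymphocytes the same protein is known as TIM-1.

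Kidney RNA came from male rats, 16 weeks old. SHRSP/Izm rats are spontaneously hypertensive and prone to stroke, and WKY/Izm rats are the normotensive controls. In each strain, groups had received a vehicle, which was H2O, Solvent A (polyethylene glycol, ethanol and sodium bicarbonate), Solvent B (sodium hydroxide) or Solvent C (named MC in the label), or a drug at a daily dose. The drugs were enalapril (20 mg/kg/day), which inhibits angiotensin-converting enzyme, candesartan (5 mg/kg/day), which blocks the angiotensin receptor, the thiazide diuretic chlorothiazide (20 mg/kg/day), the beta and alpha-1 adrenergic blocker carvedilol (50 mg/kg/day), the calcium channel blocker amlodipine (20 mg/kg/day) and the vasodilator hydralazine (10 mg/kg/day). Each of the 20 groups had 2 arrays, called replicate 1 and replicate 2, and each array label named 2 animals. No transgene or deletion is named for any group. The labels do not say which vehicle belongs to which drug. Candesartan was set against Solvent A, chlorothiazide against Solvent B, carvedilol against Solvent C and enalapril in SHRSP against H2O, because these pairs shared a scan session and a slide series. For hydralazine and amlodipine in both strains and enalapril in WKY, session or slides differed from those of H2O, so drug and batch cannot be told apart there.

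Levels are the deposited intensities, on a scale where each array's median probe is 1. Differences are log2 values with standard errors from limma, and a call needed a Benjamini-Hochberg adjusted p under 0.05 over 24993 tested probes. The RNA is from whole kidney, where fewer cells of a type and less RNA per cell cannot be told apart.

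Havcr1 lies on chromosome 10 at 31619914 to 31652955 (rat assembly GRCr8), between its relatives Timd2 at 31561563 to 31602515 and Timd4 at 31686994 to 31723095. The 250 bases before the RefSeq start of Havcr1 (GRCr8, chr10:31629528-31629777, plus strand), which fall within the annotated span of the gene, are shown with those of Timp1, Serpina3n and Gpnmb, the 3 genes whose arrays followed it most closely below, to set out what stands upstream of them. Both strands were searched for the motifs below, and matches are in capitals. The TATA box was written as TATAAA, with no other letter allowed. A site of the STAT factors was written as TTCNNNGAA, where N stands for any base. The AP-1 site was written as TGANTCA, again with any base in the middle. The last motif was the CCAAT box, as its name spells it.
Havcr1: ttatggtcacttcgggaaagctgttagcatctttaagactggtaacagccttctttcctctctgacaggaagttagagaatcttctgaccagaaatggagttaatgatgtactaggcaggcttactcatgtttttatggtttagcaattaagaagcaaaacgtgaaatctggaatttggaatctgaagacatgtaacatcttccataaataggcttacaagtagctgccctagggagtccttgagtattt
Timp1: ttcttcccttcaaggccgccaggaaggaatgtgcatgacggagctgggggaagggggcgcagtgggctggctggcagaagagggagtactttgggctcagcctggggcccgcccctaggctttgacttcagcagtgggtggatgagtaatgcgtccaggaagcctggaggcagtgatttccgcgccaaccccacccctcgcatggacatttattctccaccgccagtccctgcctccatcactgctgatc
Serpina3n: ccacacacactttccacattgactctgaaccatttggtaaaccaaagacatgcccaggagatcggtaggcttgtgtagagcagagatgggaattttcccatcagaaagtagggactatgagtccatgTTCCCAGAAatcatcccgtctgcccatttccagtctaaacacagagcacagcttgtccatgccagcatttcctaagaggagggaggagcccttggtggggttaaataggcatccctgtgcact
Gpnmb: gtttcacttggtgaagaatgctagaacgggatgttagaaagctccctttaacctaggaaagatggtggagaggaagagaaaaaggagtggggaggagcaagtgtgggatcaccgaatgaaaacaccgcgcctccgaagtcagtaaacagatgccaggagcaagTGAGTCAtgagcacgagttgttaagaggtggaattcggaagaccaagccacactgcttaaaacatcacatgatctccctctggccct
The Havcr1 window held none of the 4 motifs, and nor did that of Timp1 (chrX:3771123-3771372, minus strand). The Serpina3n window (chr6:129088142-129088391, plus strand) held a STAT site starting at -123 from the gene start. The Gpnmb window (chr4:79340878-79341127, plus strand) held an AP-1 site starting at -87. Among 33469 RefSeq promoter windows of this length, 7.67% held the STAT letters, 6.34% the AP-1 letters, 12.9% the TATA box and 34.0% CCAAT. A match is a string of letters and not a measured site.

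In SHRSP, both probes were highest in vehicle kidneys and low under most drugs. On GE1278517, the H2O arrays read 17.968 and 50.179, the highest pair of the study. The Solvent A arrays read 9.443 and 22.73, those of Solvent B 16.021 and 7.746, and those of Solvent C 3.271 and 7.841. All 8 SHRSP vehicle arrays were above all 20 WKY arrays, which ran from 1.118 to 2.879 with a median of 1.5615.

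Under drugs, GE1278517 in SHRSP read 1.127 and 1.2522 with enalapril, 1.406 and 1.2787 with hydralazine, and 1.637 and 1.9475 with carvedilol. Candesartan gave 2.303 and 0.9921, and chlorothiazide 4.399 and 3.5013. Amlodipine gave 15.268 and 2.4915, the pair of replicates with the largest ratio in either strain. Of the 12 SHRSP drug arrays, 8 lay within the WKY range, 1 below it and 3 above it. The 3 above were both chlorothiazide arrays and amlodipine replicate 1.

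On GE13234, the SHRSP pattern over vehicles and drugs had the same shape. The H2O arrays read 2.777 and 7.702, the Solvent A arrays 3.007 and 6.392, the Solvent B arrays 3.503 and 2.532, and the Solvent C arrays 1.43 and 2.425. Enalapril gave 0.751 and 0.6091, hydralazine 0.784 and 1.1102, candesartan 1.005 and 0.9669, carvedilol 1.245 and 1.3032, and chlorothiazide 1.847 and 1.4925. Amlodipine again split, at 2.91 and 1.0118.

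WKY stood elsewhere on GE13234: its 20 arrays ran from 3.243 to 7.907 with a median of 5.814. All 12 SHRSP drug arrays and 5 of the 8 SHRSP vehicle arrays were below that whole range, and the other 3 vehicle arrays were within it. The lowest WKY arrays were the H2O pair, at 3.243 and 3.735.

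**Figure D1:**
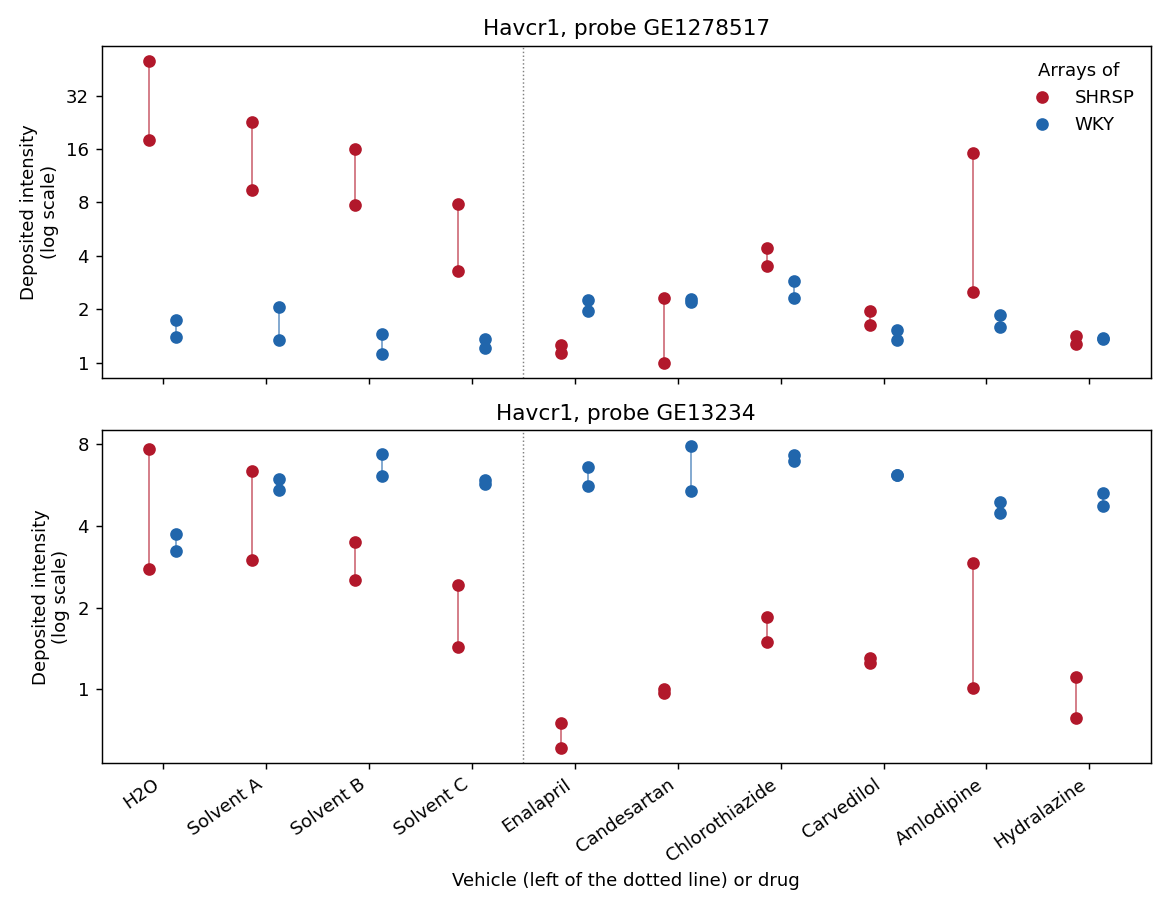
Deposited intensity of each Havcr1 probe (vertical axis, log scale, array median 1) by vehicle or drug, with 1 point per array and a line joining the 2 arrays of a group. On GE1278517 all 8 SHRSP vehicle arrays are above the WKY range of 1.118 to 2.879, and on GE13234 all 12 SHRSP drug arrays are below the WKY range of 3.243 to 7.907.

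Replicates spread more in SHRSP than in WKY. The pooled SD within groups on the log2 scale was 0.86 in SHRSP and 0.21 in WKY for GE1278517, and 0.58 and 0.15 for GE13234 (10 groups of 2 arrays each). In 8 of the 10 SHRSP groups, the array that was higher on one probe was higher on the other, against 6 of 10 in WKY. Ordered by group mean, GE1278517 placed SHRSP H2O first, followed by SHRSP Solvent A, SHRSP Solvent B, SHRSP amlodipine, SHRSP Solvent C and SHRSP chlorothiazide. All 10 WKY groups and the remaining SHRSP groups came after them, with SHRSP enalapril last. Of the 19 neighbouring pairs in that order, 0 differed beyond their spread (ranges apart and a gap over the pooled SD of 0.63). On GE13234 the 9 highest groups were all WKY, led by WKY chlorothiazide, and the last 8 were all SHRSP. There, 1 of 19 neighbouring pairs differed beyond the spread (0.43), SHRSP enalapril below SHRSP hydralazine.

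The strain comparison asks how much Havcr1 differs between hypertensive and normotensive kidneys that received vehicle only. GE1278517 was 8.73-fold higher in SHRSP (8 against 8 arrays, log2 difference 3.13 ± 0.30, adjusted p = 2.5e-08). GE13234 was 1.67-fold lower in SHRSP (-0.74 ± 0.20, adjusted p = 0.0102). Of all tested probes 21.8% passed in this comparison, 11.1% higher and 10.7% lower. Both probes therefore passed, with opposite signs.

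The strain difference on GE1278517 was present with every vehicle. It was 4.19 with H2O, 3.11 with Solvent A, 3.16 with Solvent B and 2.04 with Solvent C (standard error 0.60 each, adjusted p between 3.2e-05 and 0.0398). The share of all tested probes that passed was 10.1% with H2O, 7.39% with Solvent A, 7.97% with Solvent B and 6.9% with Solvent C. On GE13234 the difference was 0.33 with H2O, -0.41 with Solvent A, -1.21 with Solvent B and -1.67 with Solvent C (standard error 0.41 each), and only the last passed (adjusted p = 0.0115). Without SHRSP H2O replicate 2 the H2O value was -0.38, and without SHRSP Solvent A replicate 1 the Solvent A value was 0.14, so the sign in these 2 vehicles rested on single arrays. Leaving out a Solvent C array put the Solvent C value between 1.41 and 2.68 on GE1278517 and between -2.07 and -1.26 on GE13234, with adjusted p up to 0.362 and 0.188.

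The 4 SHRSP vehicle groups also differed among themselves on GE1278517 (F test in limma, adjusted p = 0.021) but did not pass on GE13234 (adjusted p = 0.070). In WKY the same test gave adjusted p = 0.969 and 0.288. Of all tested probes 34.2% passed it in SHRSP and 25.5% in WKY. Each vehicle was scanned in its own session, so vehicle and session cannot be told apart.

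Under vehicle the strain differences of the 2 probes lay 3.87 apart on the log2 scale, and under drugs 2.60 apart. These values restate the differences above and were looked at because of their opposite signs, so no test is given. Which probe follows the full transcript in each strain was not tested.

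Across the 20 SHRSP arrays the 2 probes rose and fell together (r = 0.959, rho = 0.941), also within the 8 vehicle arrays (r = 0.940) and the 12 drug arrays (r = 0.881). Without SHRSP H2O replicate 2 and SHRSP Solvent A replicate 2, the arrays farthest from the median, r was 0.943. On deviations from scan session means it was 0.981, and on deviations from group means 0.895. Across the 20 WKY arrays r was 0.140 (rho = 0.099), and 0.414 on deviations from session means. These correlations are descriptions, since arrays share sessions and groups. The WKY arrays also spanned a narrower range, 2.58-fold on GE1278517 and 2.44-fold on GE13234, against 50.6-fold and 12.6-fold in SHRSP.

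**Figure D2:**
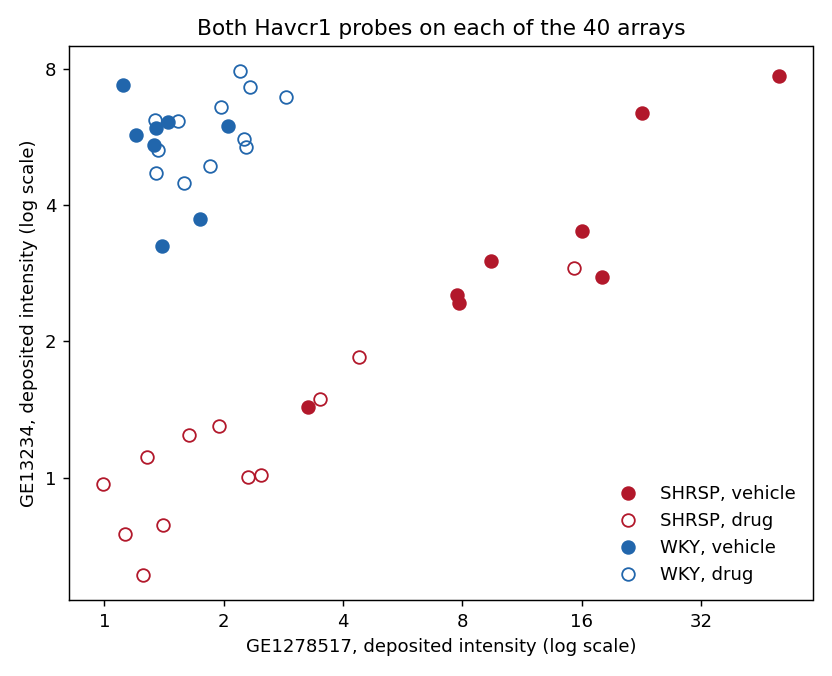
Deposited intensity of GE1278517 (horizontal axis) and GE13234 (vertical axis) on each of the 40 arrays, both on log scales, with filled points for vehicle and open points for drug. SHRSP arrays lie along a line (r = 0.959), and WKY arrays form a separate cloud in which r is 0.140.

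The drug comparisons ask whether antihypertensive treatment was accompanied by a lower Havcr1 level in SHRSP. Havcr1 fell with enalapril and on average over the 4 drugs matched to their vehicle. Enalapril was 24.4-fold below H2O on GE1278517 (-4.61 ± 0.60, adjusted p = 0.000614) and 6.81-fold below it on GE13234 (-2.77 ± 0.41, adjusted p = 0.0011). Enalapril passed for 0.98% of all tested probes, and for 0.768% in the downward direction. Its arrays did not overlap those of H2O on either probe. With so few arrays per group such separation can arise by chance, and it was not counted over all tested probes.

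Over the 4 matched drugs, GE1278517 fell 6.65-fold (-2.73 ± 0.30, adjusted p = 5.5e-05) and GE13234 2.96-fold (-1.56 ± 0.20, adjusted p = 0.000345), from 8 drug arrays against 8 vehicle arrays. The same average passed for 0.452% of all tested probes, and for 0.368% in the downward direction. An exact two-sided permutation of arrays within session gave p = 0.00154 for each probe, the smallest that 1296 permutations can give. The shared error in these fits takes in the tighter WKY arrays. With only the SHRSP arrays in the fit, the errors were 0.41 and 0.28, and adjusted p was 0.0303 for GE1278517 and 0.0575 for GE13234. In that fit enalapril gave adjusted p = 0.0496 and 0.0702.

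GE1278517 was 9.36-fold lower with candesartan (-3.23 ± 0.60, adjusted p = 0.0488), a call that did not hold in most other settings. With only the SHRSP arrays in the fit its adjusted p was 0.625, and without Solvent A replicate 2 the value was -2.57 (adjusted p = 0.713). On GE13234 candesartan gave -2.06 ± 0.41 (adjusted p = 0.0842). Candesartan passed for 0.044% of all tested probes, chlorothiazide for 0.048% and carvedilol for 0.168%. Chlorothiazide gave -1.56 ± 0.60 on GE1278517 and -0.85 ± 0.41 on GE13234 (adjusted p = 1 for both), and carvedilol -1.53 ± 0.60 and -0.59 ± 0.41 (adjusted p = 0.476 and 0.875). All 6 SHRSP arrays of candesartan, chlorothiazide and carvedilol were below the mean of their vehicle on both probes.

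Hydralazine was 21.7-fold below H2O on GE1278517 (-4.44 ± 0.60, adjusted p = 5.8e-05) and 4.92-fold below it on GE13234 (-2.30 ± 0.41, adjusted p = 0.00072). Amlodipine was 4.60-fold and 2.65-fold below H2O (-2.20 ± 0.60 and -1.41 ± 0.41, adjusted p = 0.0119 and 0.0175). In SHRSP 15.6% of all tested probes passed with hydralazine and 20.3% with amlodipine, beside 0.98% with enalapril. Enalapril shared its session and slides with H2O while hydralazine and amlodipine did not. Drug and batch cannot be told apart in these shares. With scan session as a block, hydralazine gave adjusted p = 0.0637 and 0.124, and amlodipine 0.393 and 0.432. Leaving out amlodipine replicate 2 brought its values to -0.90 and -0.64, and leaving out H2O replicate 2 to -1.46 and -0.70, none of which passed.

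**Figure D3:**
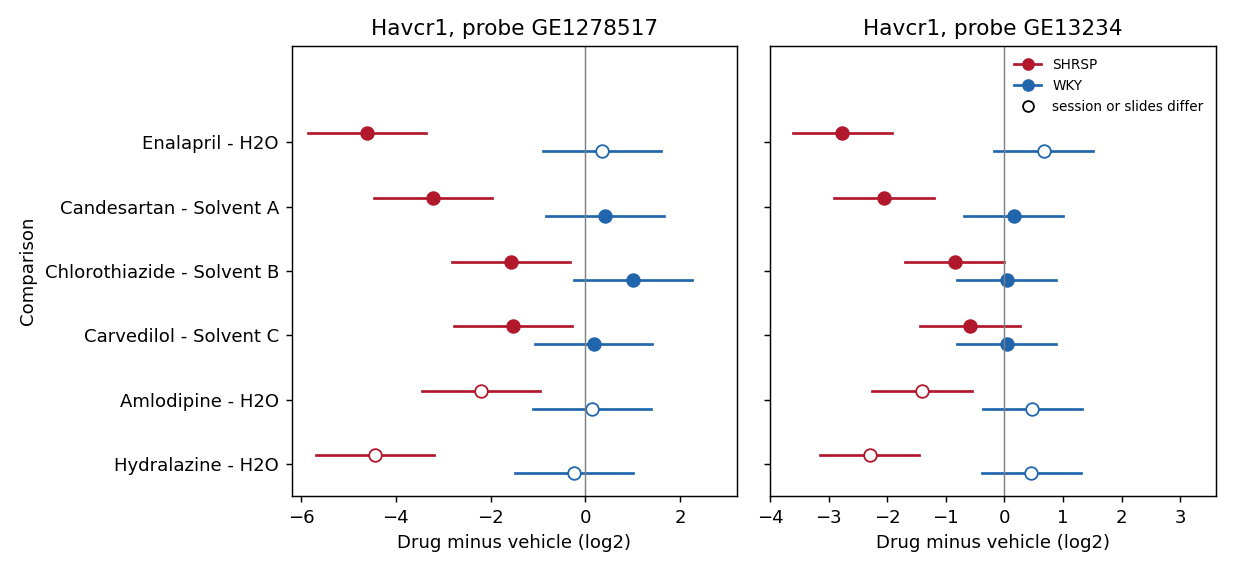
Drug minus vehicle on the log2 scale (horizontal axis) with 95% confidence intervals from limma for each drug and strain (2 against 2 arrays), for each Havcr1 probe. Open points mark drugs that did not share scan session and slide series with the vehicle. SHRSP values run from -4.61 to -1.53 on GE1278517 and from -2.77 to -0.59 on GE13234, while WKY values run from -0.24 to 1.00 and from 0.04 to 0.67.

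In WKY, 0 of 6 drugs passed on either probe in limma, and 0 had an unadjusted p under 0.05. Differences ran from -0.24 to 1.00 on GE1278517 and from 0.04 to 0.67 on GE13234. Among all tested probes 6.38% passed with enalapril in WKY, 0.056% with candesartan, 0.052% with chlorothiazide, 0.12% with carvedilol, 15.6% with amlodipine and 15.3% with hydralazine. The largest was chlorothiazide on GE1278517, from 1.444 and 1.118 with Solvent B to 2.879 and 2.326 (1.00, 95% confidence interval -0.24 to 2.25). Averaged over the 3 matched drugs, GE1278517 was 0.52 ± 0.35 higher and GE13234 0.08 ± 0.24 (adjusted p = 1 for both), beside 0.032% of probes passing. All 6 of these WKY drug arrays were above the mean of their vehicle on GE1278517, and an exact permutation within session gave p = 0.0185 for that single value. With only the WKY arrays in the fit, its error was 0.12, its unadjusted p 0.000902 and its adjusted p 0.48. Chlorothiazide on GE1278517 then gave 1.00 ± 0.20 (unadjusted p = 0.00043, adjusted p = 0.282). On GE13234 enalapril, amlodipine and hydralazine had unadjusted p = 0.00053, 0.0057 and 0.0070 in that fit. Their adjusted p values were 0.0297, 0.0509 and 0.0565, and these drugs did not share their batch with H2O.

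The test of the difference itself, over the 3 drugs matched in both strains, gave SHRSP minus WKY values of -2.63 ± 0.49 on GE1278517 (unadjusted p = 2.17e-05, adjusted p = 0.15) and -1.24 ± 0.33 on GE13234 (unadjusted p = 0.0012, adjusted p = 0.574). Only 0.004% of all tested probes passed this comparison. Without SHRSP Solvent C replicate 1 or SHRSP Solvent A replicate 1, the GE1278517 value was -2.84 and -2.85 and passed (adjusted p = 0.027 and 0.0493).

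Under drugs the strains no longer differed past the threshold on GE1278517, where the mean over 6 drugs was 0.25 ± 0.24 (12 against 12 arrays, adjusted p = 0.52, 95% confidence interval -0.26 to 0.75). Of single drugs 0 of 6 passed in limma and 1, amlodipine, had an unadjusted p under 0.05 (1.84 ± 0.60, adjusted p = 0.0581). On GE13234 SHRSP was 5.09-fold below WKY under drugs (-2.35 ± 0.17, adjusted p = 9.4e-11), and all 6 drugs passed, from -1.55 with amlodipine to -3.11 with enalapril. Not all of these single-drug calls were firm. Those of amlodipine and hydralazine were each kept in 8 of 10 other limma settings, with adjusted p up to 0.395 and 0.224. Those of enalapril and candesartan were each kept in 9 of 10. Leaving out single arrays put the amlodipine value between -2.32 and -0.78. The mean passed for 26.1% of all tested probes. Single drugs passed for 15.6% with enalapril, 5.94% with candesartan, 5.6% with chlorothiazide, 6.5% with carvedilol, 9.01% with amlodipine and 6.85% with hydralazine.

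Havcr1 belongs to the TIM family of immunoglobulin and mucin domain receptors. Timd2, its neighbour on chromosome 10, encodes TIM-2, a receptor that in mice binds ferritin heavy chain. Its probe GE1108252 had a good flag on all 40 arrays. Timd2 read 2.008 and 3.786 with H2O in SHRSP, 1.534 and 2.212 with Solvent A, 1.896 and 1.33 with Solvent B, and 1.107 and 1.361 with Solvent C. SHRSP drug arrays ran from 0.818 to 1.617 and all WKY arrays from 6.129 to 8.309. The strains did not overlap on this probe. Such separation was not counted over all tested probes, of which 21.8% passed by strain under vehicle and 26.1% under drugs.

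Timd2 was lower in SHRSP under vehicle (-2.03 ± 0.11 on the log2 scale, adjusted p = 8.3e-13). It fell with enalapril (-1.31 ± 0.22, adjusted p = 0.00337) and over the 4 matched drugs in SHRSP (-0.54 ± 0.11, adjusted p = 0.0233), the latter a call not kept with only the SHRSP arrays in the fit (adjusted p = 0.235) or without 1 of several single arrays. Over the 20 SHRSP arrays its r was 0.788 with GE1278517 and 0.824 with GE13234. Over the 8 SHRSP vehicle arrays alone r was 0.969 and 0.901, and over the 12 drug arrays 0.321 and 0.488. By the lower of its 2 r values in SHRSP, it ranked 24 of 9936 genes.

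In WKY, Timd2 followed GE13234 (r = 0.602, rho = 0.741) and not GE1278517 (r = -0.06). On deviations from session means the WKY values were 0.515 and 0.281, and without the H2O pair r with GE13234 was 0.748. Timd2 ranked 224 of 9840 genes by its r with GE13234 in WKY. Points in these correlations share sessions and strain, and whether the Timd2 and Havcr1 probes share sequence was not tested, since probe sequences were not used here. Havcr2, which encodes TIM-3 of exhausted T cells and macrophages, had no good flag on any array and was not tested. Timd4 and 2 further Havcr1-like genes on chromosome 10, Havcr1l1 and Havcr1l2, were named by no probe in the annotation, and how far transcripts of these relatives reach the Havcr1 probes was not tested.

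**Figure D4:**
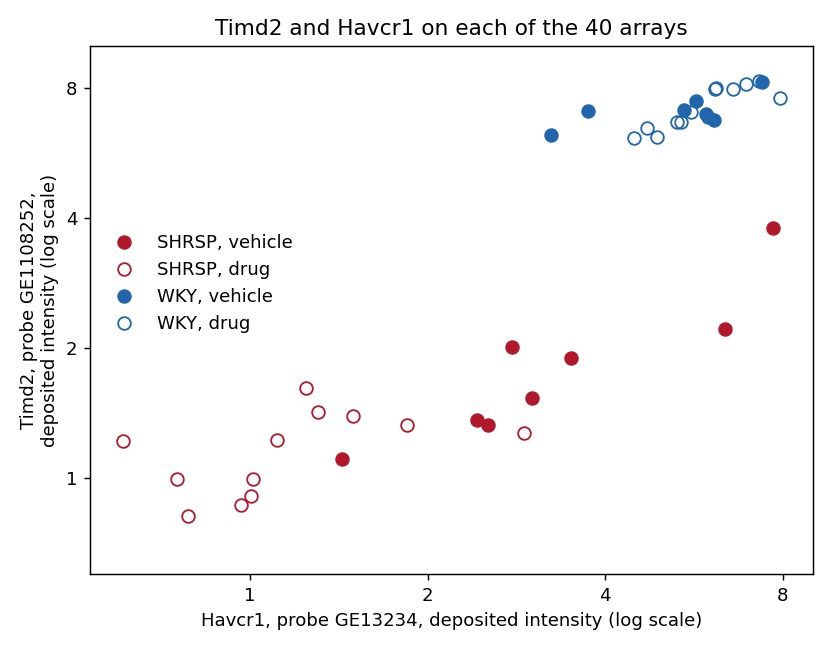
Deposited intensity of Havcr1 probe GE13234 (horizontal axis) and of Timd2 probe GE1108252 (vertical axis) on each of the 40 arrays, both on log scales, with filled points for vehicle and open points for drug. Timd2 is at 6.129 to 8.309 on WKY arrays and at 0.818 to 3.786 on SHRSP arrays, and it rises with GE13234 within each strain.

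Genes were ranked by the lower of their 2 correlations with the Havcr1 probes over the 20 SHRSP arrays. Of 12746 candidate probes, 3 had r over 0.9 with both, 20 over 0.8 and 76 over 0.7. The 20 highest genes were Timp1, Serpina3n, Gpnmb, Spp1, Lcn2, Clu, Postn, Tubb6, Birc3, Pvr, Mfsd12, Frzb, Il24, Cd44, Hmox1, Ccn5, Tlcd3a, Glycam1, Adamts1 and Top2a, with r from 0.808 to 0.940. These correlations chose the genes and are given as a description. The median r over all candidates was 0.01 with either probe.

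Several of the closest genes are known responses of injured tubules. Timp1, an inhibitor of matrix metalloproteinases, led with r = 0.933 for both probes. It read 12.815 and 16.585 with H2O in SHRSP and 6.006 and 5.8239 with enalapril. Spp1, which encodes the secreted phosphoprotein osteopontin, had r = 0.940 and 0.897, and read 73.554 and 149.963 with H2O and 29.096 and 36.1721 with enalapril. On both genes the arrays of the groups did not overlap, and H2O replicate 2 was the highest SHRSP array, as it was for Havcr1. Both genes were chosen for following Havcr1 over these same arrays, so neither point is separate evidence. With so few arrays per group such separation can also arise by chance, and it was not counted over all tested probes.

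Lcn2, which encodes the iron-siderophore binding protein NGAL that is measured in urine after acute kidney injury, had r = 0.902 and 0.885. It read 10.993 and 29.575 with H2O and 4.188 and 4.0638 with enalapril. Gpnmb, a transmembrane glycoprotein of macrophages and injured epithelium, had r = 0.913 and 0.906, and read 9.478 and 25.932 with H2O and 4.011 and 4.3438 with enalapril. Serpina3n, an acute phase inhibitor of serine proteases, had r = 0.908 and 0.932 and read 0.965 and 2.732 with H2O. For Serpina3n 4 of 20 SHRSP arrays were at the floor of 0.38, for Il24 10 and for Ccn5 3, where values have no order.

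The split between the amlodipine replicates in SHRSP recurred in 4 of these 5 genes and was small in the other, Gpnmb, at 6.498 and 5.7938. Replicate 1 and replicate 2 read 108.307 and 46.6074 for Spp1, 10.267 and 3.7915 for Lcn2, 8.615 and 5.8571 for Timp1, and 0.902 and 0.3352 for Serpina3n. In each the higher array was the one in which both Havcr1 probes were higher. On deviations from group means, which leave only differences between replicates, the 20 genes had a median r of 0.811 with GE1278517 and 0.858 with GE13234. The genes were chosen for following Havcr1 over these same arrays, so neither the shared split nor these medians are separate evidence.

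The other named genes had varied roles. Clu encodes the extracellular chaperone clusterin, Hmox1 the haem-degrading enzyme heme oxygenase 1 and Cd44 the hyaluronan receptor. Postn and Ccn5 encode matricellular proteins, Adamts1 a secreted metalloprotease and Frzb a secreted antagonist of Wnt ligands. Tubb6 encodes a beta tubulin, Birc3 an inhibitor of apoptosis in the NF-kappa B pathway, Pvr the poliovirus receptor, Il24 a cytokine, Glycam1 a mucin-like glycoprotein and Top2a the topoisomerase of dividing cells. Mfsd12 is a lysosomal transporter. Tlcd3a was the only one of the 20 genes lower in SHRSP than in WKY past the threshold. Its other probe had r = -0.15 with GE1278517. The other probe of Serpina3n had r = 0.235 and that of Pvr 0.693.

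Levels in WKY and the strain difference were not used to choose these genes, though the vehicle arrays of SHRSP enter both. Under vehicle 15 of the 20 were higher in SHRSP and 1 was lower, with a median log2 difference of 0.62, against 11.1% and 10.7% of all tested probes and a median of 0.00. Clu was higher by 1.15 ± 0.09, Serpina3n by 1.07 ± 0.20, Gpnmb by 1.04 ± 0.13, Lcn2 by 1.00 ± 0.19 and Timp1 by 0.66 ± 0.09 (adjusted p = 2.9e-10, 0.000268, 1.0e-06, 0.000278 and 6.4e-06). Adamts1, Mfsd12, Postn and Top2a did not pass. The direction of the majority was that of GE1278517 and opposite to that of GE13234. Within SHRSP both Havcr1 probes were higher on average in the vehicle arrays, which entered the choice and this comparison. The surplus of higher genes may follow from the choice, so it does not tell the probes apart.

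In WKY, 17 of the 20 genes had a positive r with GE1278517 (median 0.317, from -0.17 for Top2a to 0.594 for Cd44). With GE13234, 9 of 20 were positive (median -0.05). Medians over all candidates were 0.03 and 0.00. On deviations from session means 17 and 13 of 20 were positive, with medians of 0.290 and 0.06. Over the 3 matched drugs in WKY, 0 of the 20 genes passed in limma and 0 had an unadjusted p under 0.05. Only 0.032% of all tested probes passed there, so a count of 0 says little about these genes. Their median difference was 0.06, against 0.00 over all tested probes, and 18 of the 20 differences were positive.

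**Figure D5:**
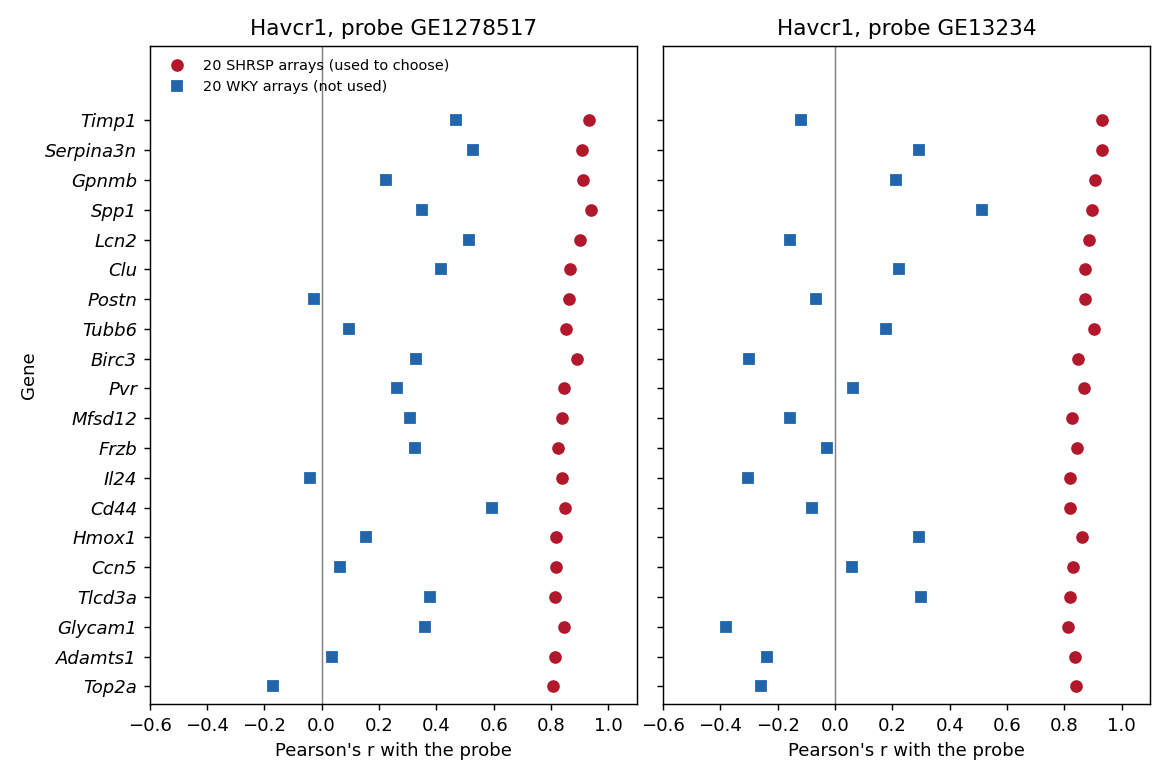
Pearson's r (horizontal axis) of the 20 genes closest to Havcr1 with GE1278517 (left) and GE13234 (right), over the 20 SHRSP arrays that chose them (circles) and over the 20 WKY arrays (squares). SHRSP values are all above 0.80 by choice, and WKY values have medians of 0.317 and -0.05.

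The makeup of this group depended on which arrays were compared. Of the 20 genes, 16 remained when ranking by either probe alone, 14 with Spearman's rho or without the 2 farthest arrays, and 12 on deviations from session means. With the 8 vehicle arrays alone 4 remained, and with the 12 drug arrays alone 5.

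The 10 genes with the most negative correlations had r from -0.77 to -0.64. They were Kirrel3, Tspan18, Coq10a, Inpp4b, Hnf4a, Crym, Slc1a1, Bend5, Pdlim7 and Notum. Hnf4a is a transcription factor that maintains the proximal tubule, Slc1a1 a glutamate transporter of its brush border, Crym a thyroid hormone binding protein and Coq10a a coenzyme Q binding protein. Hnf4a read 8.933 to 12.394 over the SHRSP vehicle arrays and 10.8427 to 13.527 over the drug arrays, and these ranges overlapped. Under vehicle 0 of the 10 were higher and 2 lower in SHRSP past the threshold, beside 10.7% of all tested probes lower. They were Tspan18 (-0.32 ± 0.06, adjusted p = 0.000473) and Slc1a1 (-0.13 ± 0.04, adjusted p = 0.00851), whose call was lost in 3 of 49 other settings. Other probes of these genes followed less closely. With GE1278517 their r was -0.34 for Kirrel3, -0.15 for Tspan18, -0.22 and -0.31 for Inpp4b and -0.56 for Bend5. Those of Hnf4a had -0.25 and -0.52, while the other probe of Pdlim7 had 0.434.

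Of the other genes in a list of tubular injury responses, 28 were measured. Of these, 13 were higher and 3 lower in SHRSP under vehicle (median 0.17, against 0.00 over all tested probes), beside 11.1% of all tested probes higher and 10.7% lower. Over the 4 matched drugs 7 fell (median -0.25 against 0.00), beside 0.368% of all tested probes. The 7 were Lcn2, Clu, Spp1, Vim, Timp1, Gpnmb and Cd44, and the same 7 passed with enalapril, where 0.768% of all tested probes fell. The matched-drug call of Clu was lost in 32 of 52 other settings, that of Lcn2 in 2 of 52, those of Spp1, Gpnmb and Cd44 in 1 each, and that of Timp1 in 0 of 51. Vim was not examined in other settings. Over the matched drugs Gpnmb changed by -1.05 ± 0.13, Spp1 by -0.91 ± 0.14 and Timp1 by -0.67 ± 0.09. With GE1278517 23 of 28 had a positive r in SHRSP (median 0.503, against -0.02 over all tested probes). Because 7 members are among the 20 genes above, these counts are not separate evidence. Vcam1, an adhesion molecule that marks maladaptive tubules, went the other way by strain and was lower in SHRSP (-3.40 ± 0.10, adjusted p = 9.7e-18). Its probe had a good flag on 30 of 40 arrays. The SHRSP vehicle arrays read 0.072 to 0.665 with a median of 0.337, below the floor, against 3.112 to 6.21 in WKY. The ranges did not overlap, a separation that was not counted over all tested probes. The size and error of this difference rest in part on values set to the floor.

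Genes that act with KIM-1 were counted in the same way. Of 9 measured genes for its ligand handling, shedding and signalling, 1 was higher in SHRSP under vehicle and 0 lower, a share near the 11.1% of all tested probes that were higher. Over the matched drugs 0 of the 9 passed in limma, beside 0.452% of all tested probes, and 2 had an unadjusted p under 0.05. That gene was Sox9, a transcription factor of regenerating tubules (0.29 ± 0.07, adjusted p = 0.00266). The Sox9 probe had a good flag on 24 arrays. Over vehicle and drugs the WKY arrays read -0.011 to 0.524 with a median of 0.306, below the floor of 0.38. The SHRSP vehicle arrays read 0.222 to 0.75 with a median of 0.4745. The size and error of the Sox9 difference rest in part on values set to the floor. Adam10 and Adam17, candidate sheddases of KIM-1, differed between strains by 0.09 ± 0.09 and 0.10 ± 0.12 (adjusted p = 0.531 and 0.635). Stat3, a transcription factor reported to drive Havcr1, had r = 0.524 and 0.535 with the Havcr1 probes in SHRSP and a strain difference of 0.00 ± 0.06. Of 10 measured genes of apoptotic cell clearance, Mfge8 and Axl were higher in SHRSP by 0.32 ± 0.08 and 0.30 ± 0.09 (adjusted p = 0.00369 and 0.0122) and Tyro3 lower (-0.27 ± 0.04, adjusted p = 2.0e-05), counts near the 21.8% of all tested probes that passed in either direction. Over the matched drugs 0 of these 10 passed in limma, beside the same 0.452%, and 1 had an unadjusted p under 0.05. At that share, counts of 0 in lists this short say little. The share of all tested probes with an unadjusted p under 0.05 was not counted.

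Markers of the cell types that could hold Havcr1 are given beside it. Their counts stand beside 11.1% of all tested probes higher and 10.7% lower in SHRSP under vehicle, and 0.452% passing over the matched drugs. Of 22 measured proximal tubule markers 5 were higher and 4 lower in SHRSP under vehicle, and over the matched drugs 0 passed in limma and 2 had an unadjusted p under 0.05. Their median r with GE1278517 was -0.07, and their summed intensity was 2549 to 3802 in SHRSP vehicle arrays, 2525 to 4100 in SHRSP drug arrays and 2401 to 3979 in WKY. Of 11 macrophage markers 8 were higher in SHRSP under vehicle, and over the matched drugs 0 passed in limma and 4 had an unadjusted p under 0.05. Their median r was 0.150, with sums of 103 to 120 in SHRSP vehicle arrays, 91.9 to 127 in SHRSP drug arrays and 69.3 to 105 in WKY. Of 9 T cell markers 0 were higher and 2 lower under vehicle, and over the matched drugs 0 passed, adjusted or not. Their median r was 0.059, with sums of 19.9 to 26.5, 19.1 to 29.1 and 19.4 to 29.0. Cd3e, a defining T cell chain, read 1.184 to 1.564 in SHRSP vehicle arrays. Of 11 markers of the distal nephron and collecting duct 4 were higher and 1 lower under vehicle, and 1 fell over the matched drugs, the calcium buffer Calb1 (-0.55 ± 0.07, adjusted p = 0.000336). Of 4 podocyte markers 3 were higher under vehicle, and over the matched drugs 0 passed, adjusted or not. The part of these cell types in the Havcr1 differences was not tested.

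Among the promoters of the 20 genes, 16 were found in RefSeq. Of these, 3 held the STAT letters, 1 the AP-1 letters, 3 the TATA box and 7 CCAAT. The shares of 18.8%, 6.25%, 18.8% and 43.8% stand beside 7.67%, 6.34%, 12.9% and 34.0% of all windows, as a description with no test.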

How the data were processed

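Per the labels, 1-colour CodeLink rat arrays carried kidney RNA with Cy5. The deposited files gave each probe an intensity, already normalised per the file headers, and a flag. The median intensity of an array was 1, as found in the values. Its method was not given in the sources used here. The series' value tables, an alternative, repeated these deposited intensities. Whether the 2 animals named per array were pooled is not stated, so p-values measure the spread between arrays, whose number limits the precision. Good flags covered 59.3% to 72.6% of probes per array.

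Intensities were quantile normalised, set to a floor of 0.38 and taken to log2. With limma 3.58.1 in R 4.3.3, 1 mean per group was estimated from all 40 arrays (20 residual degrees of freedom) for 24993 probes flagged good on both arrays of some group, and Benjamini-Hochberg adjustment ran over all of them. The code was tested on simulated data. Genes that follow Havcr1 needed 1 symbol and a good flag on at least 10 of the 20 SHRSP arrays. The platform's probe table gave symbols, and RefSeq on GRCr8 gave coordinates and promoters. Gene lists had 1 probe per gene, the brightest. Members, lists and tests were chosen with earlier results of these data known. Alternatives were normexp, median scaling, the deposited tables, filters, session blocks, eBayes options, array weights, subsets of groups and leaving out each array. Pooled vehicles, fits within a strain and permutations within session were added after seeing the data. Python 3.11.15, pandas 2.3.3, SciPy 1.17.1 and Matplotlib 3.10.9 were also used.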

Additional observations from a re-analysis of the deposited data

Results flagged for a closer look

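On GE1278517, all 6 SHRSP arrays of candesartan, chlorothiazide and carvedilol were below the mean of their vehicle and all 6 WKY arrays were above it. The difference of the drug effects between strains was -2.63 on the log2 scale, with adjusted p = 0.15 in limma.

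Dixon's gap ratio was examined for the 8 vehicle arrays of each strain on the 2 Havcr1 probes and on the named genes. It was past its critical value in 8 of 66 groups, where chance gives about 1 in 20 if the 8 arrays are alike. They came from 4 vehicles, each scanned in its own session. Of all tested probes 34.2% in SHRSP and 25.5% in WKY differed among vehicles past the threshold. Every flagged array was an H2O array, so an outlying array and a vehicle or session difference cannot be told apart. In SHRSP, the genes had been chosen for following or opposing Havcr1 over the same arrays, of which H2O replicate 2 is the highest for Havcr1, so its recurrence there is no separate evidence. SHRSP H2O replicate 2 was far above the other SHRSP vehicle arrays for Gpnmb (0.604), Spp1 (0.610) and Tubb6 (0.539) and far below them for Crym (0.616). In WKY, H2O replicate 1 stood above the others for Mfsd12 (0.637) and Il24 (0.527), and H2O replicate 2 for Cd44 (0.573) and Ccn5 (0.676).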

How the results depend on the processing

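Under 11 alternatives and with each of 16 arrays left out, both strain differences under vehicle kept sign and call (2.81 to 3.31 on GE1278517, -0.92 to -0.56 on GE13234). So did the matched-drug mean on GE1278517 under 13 (-2.92 to -2.48). On GE13234 that mean was called except with only the SHRSP arrays in the fit (-1.56, adjusted p = 0.0575). Leaving out single arrays gave -1.74 to -1.39. Enalapril ranged from -5.35 to -3.87 and -3.48 to -2.06 without single arrays, all called. It was not called with only the 2 groups compared in the fit (-4.61, adjusted p = 0.386, and -2.77, 0.426), nor on GE13234 with only the SHRSP arrays (-2.77, 0.0702). Fewer arrays estimate the spread in such fits.

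Candesartan on GE1278517 lost its call with normexp (-2.89), the deposited tables (-3.28), median scaling (-3.28), no filter (-3.23), session as a fixed block (-3.23), eBayes with trend and robust (-3.23), only the groups compared (-3.23) and only the SHRSP arrays (-3.23), with adjusted p from 0.0511 to 0.625. It ranged from -3.88 to -2.57 without single arrays. On GE13234 it gained one with a good flag on all arrays (-2.06, adjusted p = 0.0307), array weights (-2.06, 0.0014) and pooled vehicles (-1.70, 0.00332), and ranged from -2.60 to -1.51 without single arrays. With pooled vehicles chlorothiazide on GE1278517 (-1.72, adjusted p = 0.0483) and carvedilol on both probes (-2.75 and -1.31) passed. Pooling sets each drug against vehicles of other scan sessions, so drug and batch cannot be told apart in that setting. Of 24993 tested probes, 1288 then rose and 1172 fell with carvedilol, 448 and 357 with chlorothiazide, and 610 and 591 with candesartan. With their matched vehicles 0.168%, 0.048% and 0.044% of all tested probes passed.

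The strain difference in drug effect on GE1278517 passed with a good flag on all arrays (-2.63, adjusted p = 0.0356), array weights (-2.63, 0.0174) and only the groups compared (-2.63, 0.033), and ranged from -2.85 to -2.41 without single arrays. Amlodipine lost its calls with session as a fixed block (-2.06 and -1.30), as a random block (-2.16 and -1.35), only the groups compared (-2.20 and -1.41), only the SHRSP arrays (-2.20 and -1.41) and pooled vehicles (-0.98 and -0.90). It ranged from -3.51 to -0.90 and -2.18 to -0.64 without single arrays. Hydralazine lost them with session as a fixed block (-4.25 and -2.31) and only the groups compared (-4.44 and -2.30). The mean of 3 matched drugs in WKY passed on GE1278517 as a single value in the permutation (0.52).

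These signs, none of a called value, reversed on leaving out 1 array. On GE13234 the strain difference ranged from -0.38 to 1.04 with H2O and from -0.96 to 0.14 with Solvent A, and in WKY chlorothiazide ranged from -0.022 to 0.094, candesartan from -0.13 to 0.44 and the 3-drug mean from -0.0195 to 0.17. On GE1278517 the strain difference ranged from -0.097 to 0.079 under hydralazine and from -1.10 to 0.060 under candesartan, and that of Mfsd12 from -0.026 to 0.080. Of the genes that follow Havcr1, 12 remained on session deviations, 4 with vehicle arrays and 5 with drug arrays. Of 16 followers called by strain 15 kept the call in every setting. Calls over the matched drugs came from arrays that chose the followers and are no support. The causes were not tested. No paired analysis was possible because replicate numbers follow accession order only.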
